A study of Mus musculus with 9 samples.

Results

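Adiponectin mRNA (Adipoq), a product of fat cells, divided 6 libraries made from whole mouse lung into 3 that held it at more than 5 CPM and 3 that held it at under 2 CPM. These 6 were all the normoxia and hypoxia libraries of a series of 9. The libraries were chosen by this level alone, and CPM is a gene's deposited estimated count for each 1000000 counts of its library. The rich libraries were normoxia replicate 2 and hypoxia replicates 2 and 5, and the poor ones were normoxia replicates 3 and 5 and hypoxia replicate 1, so both oxygen groups were in both classes. In that order Adipoq stood at 11.7, 17.4 and 12.1 CPM in the rich and at 0.411, 0.767 and 0.348 CPM in the poor libraries. The highest poor and the lowest rich library lay at 0.767 and 11.7 CPM, with none between. Since this measurement made the classes, differences between them are given below as a description, and no single gene's p-value is printed for them. Genes later called between them, or named by a p-value threshold, are only those that follow the split. Rich and poor are names for libraries, not groups of the study.

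The lungs came from C57BL/6 mice with no transgene or mutation named in the labels. The normoxia and hypoxia libraries were titled WT, for wild type. The series asked how parathyroid hormone (PTH), which raises blood calcium through bone and kidney, affects pulmonary hypertension produced by low oxygen. Groups of 3 libraries each came from mice in normoxia, from mice kept for 3 weeks at 10% oxygen, and from mice at 10% oxygen given residues 1 to 34 of PTH at 40 µg/kg each day. A saline sham group is mentioned without saying which libraries it covers, and no age or sex is used here. RNA with poly(A) tails was sequenced with a strand-preserving kit, to between 40234030 and 58391086 counts per library. The labels do not state that each library is a separate animal, so p-values measure only the spread between libraries. The 3 PTH libraries were outside the rule, and all of them held Adipoq at under 2 CPM (0.336, 1.40 and 0.0927 CPM in replicates 3, 4 and 5).

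Adiponectin is secreted by mature adipocytes, which store triglyceride in a droplet coated with perilipin. In mice a sleeve of heart muscle of atrial type runs along the pulmonary veins into the lung, so cardiac mRNA in whole lung is usual. In bulk RNA fewer cells of a type cannot be told apart from less of its RNA in each cell.

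The 4 promoters below belong to genes on which the description turns: the gene that made the classes, a pair of atrial muscle genes that did not follow each other, and an airway secretory gene with a wide range. Each is the stretch of 250 bases before the RefSeq transcription start in GRCm38.p6, read 5′ to 3′ on the gene's strand. The windows are chr16:23146286-23146535, plus strand for Adipoq, chr11:5898783-5899032, minus strand for Myl7, chr4:148000472-148000721, plus strand for Nppa and chr2:154142630-154142879, plus strand for Bpifa1. Capitals mark matches on either strand to the TATA box (spelt TATAAA), the CCAAT box (spelt CCAAT), the C/EBP-type motif (spelt TTGCNNAA) or the GATA-type motif (spelt AGATAA), of which no pair overlapped.
Adipoq: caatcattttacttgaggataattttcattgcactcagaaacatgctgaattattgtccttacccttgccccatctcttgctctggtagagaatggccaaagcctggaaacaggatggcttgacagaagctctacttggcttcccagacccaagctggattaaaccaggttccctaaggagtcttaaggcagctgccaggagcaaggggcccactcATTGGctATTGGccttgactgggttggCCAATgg
Myl7: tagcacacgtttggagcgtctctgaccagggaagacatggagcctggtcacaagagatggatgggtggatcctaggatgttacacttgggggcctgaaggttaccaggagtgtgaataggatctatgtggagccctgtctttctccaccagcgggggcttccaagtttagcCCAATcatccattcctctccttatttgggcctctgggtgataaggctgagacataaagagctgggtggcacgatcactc
Nppa: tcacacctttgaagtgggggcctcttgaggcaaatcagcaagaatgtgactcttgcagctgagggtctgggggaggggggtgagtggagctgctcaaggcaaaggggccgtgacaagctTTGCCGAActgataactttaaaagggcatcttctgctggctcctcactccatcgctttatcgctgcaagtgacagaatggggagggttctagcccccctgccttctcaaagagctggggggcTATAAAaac
Bpifa1: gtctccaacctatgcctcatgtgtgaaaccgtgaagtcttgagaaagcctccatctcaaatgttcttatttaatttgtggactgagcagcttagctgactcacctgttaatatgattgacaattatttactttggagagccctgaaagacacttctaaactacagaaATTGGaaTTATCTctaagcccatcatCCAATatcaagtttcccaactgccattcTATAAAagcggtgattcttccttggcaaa
The Adipoq window held 3 matches to the CCAAT box and none to the other motifs. Myl7 had 1 match to the CCAAT box, while Nppa had 1 to the TATA box and 1 to the C/EBP-type motif. Bpifa1 had 1 match to the TATA box, 2 to the CCAAT box and 1 to the GATA-type motif. Of 32851 mouse promoter windows of this length, 12.4% held the TATA box, 33.8% the CCAAT box, 9.56% the C/EBP-type motif and 9.99% the GATA-type motif. None of the 4 motifs was in all 4 windows, and a match is no evidence that a factor binds there. The motifs and promoters were picked after the values were seen.

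Mature fat cell genes stood far above their level in the poor libraries. Plin1, the perilipin that coats the fat droplet, stood at 12.6, 17.2 and 10.7 CPM in the rich libraries and 0.986, 0.545 and 0.447 CPM in the poor ones. Fabp4, the adipocyte fatty acid carrier that capillary endothelium also makes, stood at 92.7, 125 and 90.4 CPM against 15.1, 13.7 and 10.2 CPM. Both sets of 3 were far apart, and hypoxia 2 was the highest library for both genes. The rich against poor log2 fold change, fitted with the oxygen group as covariate, was 4.70 for Adipoq, which made the classes. It was 4.35 (SE 0.37) for Plin1 and 3.00 (SE 0.22) for Fabp4. Car3, a carbonic anhydrase abundant in fat, had means of 69.5 ± 15.1 and 2.28 ± 1.34 CPM (SD, n = 3 each). Cfd, the complement factor adipsin, had means of 98.1 ± 14.6 and 6.21 ± 3.75 CPM. Pck1, the gluconeogenic enzyme that supplies glycerol in fat, had 35.4 ± 12.3 and 1.14 ± 0.916 CPM, and Retn, the adipokine resistin, 4.24 ± 0.512 and 0.300 ± 0.161 CPM.

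Of 22 white adipocyte genes 21 were tested, and Adipoq, which made the classes, is left out of the counts over the other 20. Of the other 20, 13 had all rich libraries above all poor ones, where 8.15% of the 19313 genes tested did. Plin1, Fabp4 and Cidec were the 3 called across the whole table, where 0.0777% of all genes tested were called. The median log2 fold change of the 20 was 1.30, beside -0.01 over all genes. Of the 21, 17 had at least 10 counts in every poor library, and 10 of those 17 had classes without overlap. Adipoq is in both the 17 and the 10, and the rule kept its classes apart. For some members the classes overlapped. Pparg, the adipogenic transcription factor that alveolar macrophages also use, had 8.38 ± 1.19 CPM in the rich and 8.61 ± 1.28 CPM in the poor libraries. Lpl, the lipase that clears triglyceride from blood, had 338 ± 142 and 309.8 ± 104 CPM. Lep, the hormone leptin, was too low to test, at 1.48, 0.395 and 0.110 CPM in the rich libraries and at most 0.171 CPM in the poor ones. The 15 genes of general lipid synthesis had a median log2 fold change of 0.03 over the 14 tested, with 1 above in all rich libraries and 1 below in all of them.

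Brown fat genes differed less, and the defining one was low in every library. Ucp1, the uncoupling protein by which brown fat makes heat, was at 0.117, 1.93 and 0.110 CPM in the rich libraries and at most 0.0343 CPM in the poor ones, and was not tested. Hypoxia 2 stood far above the other libraries. Cidea, a droplet protein of brown fat, had 2.83, 7.55 and 3.83 CPM against 1.47, 0.980 and 1.24 CPM, with the same library highest. Cox8b, a cytochrome oxidase subunit of brown fat and heart, had 6.57, 9.45 and 10.2 CPM against 3.01, 1.74 and 4.60 CPM, and here hypoxia 5 was highest. The 14 of 18 brown adipocyte genes tested had a median log2 fold change of 1.00, and 6 of them had all rich above all poor libraries, beside 8.15% of all genes tested.

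**Figure D1:**
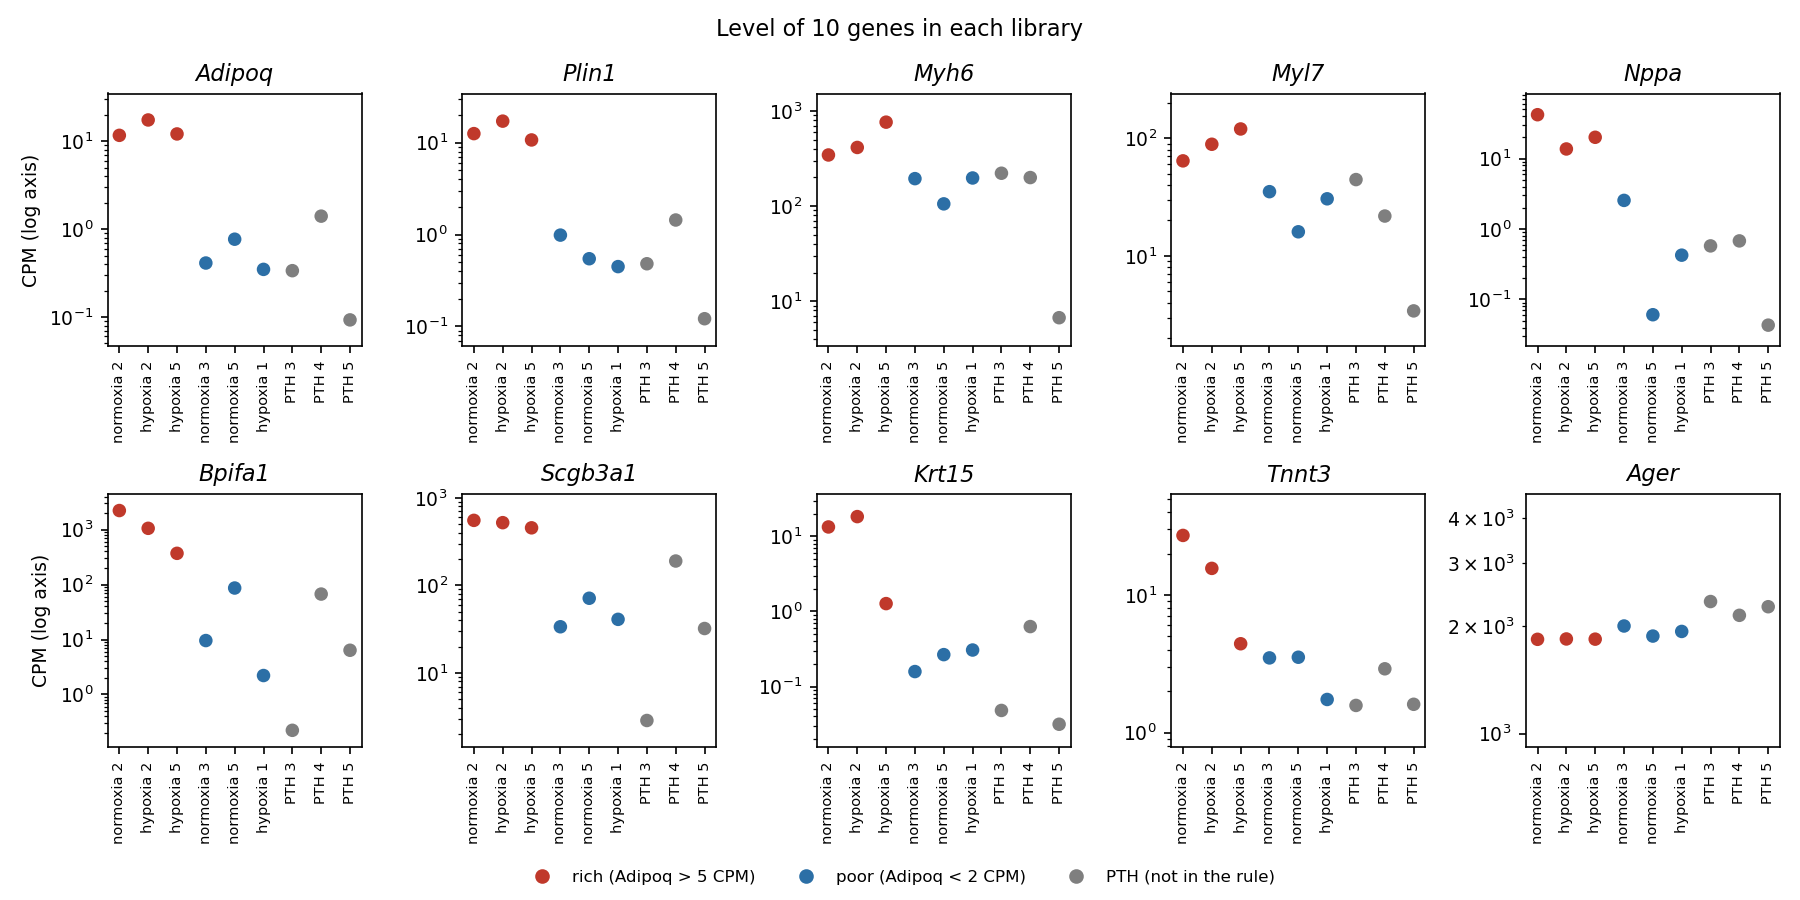
Level of 10 genes in each of the 9 libraries, in CPM on log axes whose range differs between panels, with 1 point per library. Red points are the 3 rich, blue the 3 poor and grey the 3 PTH libraries. Adipoq and Plin1 separate the classes widely, Myh6 and Myl7 more narrowly, Krt15 and Tnnt3 are far lower in hypoxia 5 than in the other two rich libraries, and Ager, a marker of type 1 alveolar cells, spans little.

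Heart muscle genes also stood higher in the rich libraries, by a smaller factor. Myh6, the α-myosin heavy chain of atrial and adult mouse ventricular muscle (chr14:54941921-54966927, minus strand, mm10), stood at 344, 413 and 762 CPM in the rich and 194, 106 and 197 CPM in the poor libraries. The classes did not overlap, and the gap between normoxia 2 and hypoxia 1, the highest poor library, was narrower than the range of the rich libraries. The log2 fold change of Myh6 was 1.35 (SE 0.34). Myl7, the atrial regulatory light chain, stood at 64.1, 88.7 and 119.6 CPM against 35.1, 16.03 and 30.5 CPM. Tnnt2, cardiac troponin T, had 233 ± 84.1 CPM in the rich and 74.6 ± 32.8 CPM in the poor libraries. All 20 genes of the list shared by atrium and ventricle, which also holds the atrial light chain Myl4, were tested. All 20 had every rich library above every poor one, beside 8.15% of all genes tested, and their median log2 fold change was 1.42. None of them was among the genes called across the whole table, which were 0.0777% of those tested. The range ran from 0.52 for Atp2a2, the calcium pump that other lung cells also make, to 2.13 for Nkx2-5, a cardiac transcription factor at 0.648 ± 0.0603 against 0.144 ± 0.0549 CPM. In 19 of the 20, the 3 PTH libraries were all below the lowest rich one, as were 12.2% of all genes tested and 57.7% of those with all rich above all poor libraries.

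Atrial light chain mRNA far exceeded that of the ventricle in both classes. On the length-scaled TPM values, Myl7 stood at 282, 408 and 561 TPM in the rich and 161, 74.6 and 148 TPM in the poor libraries. Myl2, the ventricular regulatory light chain, was at or under the floor of 1 TPM of these values in all 6, and its CPM was at most 0.465. Sln, sarcolipin, an atrial inhibitor of the calcium pump, had 25.3, 25.4 and 38.7 CPM against 13.7, 3.88 and 7.72 CPM. Of 11 atrial and pulmonary vein genes tested 5 had all rich above all poor libraries, beside 8.15% of all genes, with a median log2 fold change of 0.87. Only 9 of the 11 had at least 10 counts in every poor library, and 3 of those 9 had classes without overlap. Tbx5, a transcription factor of atrium and lung mesenchyme, was among the genes that overlapped, at 84.2 ± 17.5 and 81.5 ± 22.5 CPM. Of 8 ventricular genes tested 4 had all rich above all poor libraries, beside the same 8.15%, with a median of 1.15. Pln, phospholamban, is on this list and on the shared cardiac list. It stood at 20.7, 29.1 and 34.5 CPM in the rich and 12.1, 2.32 and 11.7 CPM in the poor libraries. Pln lies opposite Cep85l, whose counts were 416% of its own, and Tnni3 shares a strand with Dnaaf3, whose counts were 31.8% of its own, so their counts are uncertain. Myh6 and Myh7, and the cardiac and skeletal actins, are close copies whose reads can be shared.

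The natriuretic peptide gene Nppa, whose product the atria release on stretch (chr4:148000722-148002079), did not keep pace with the other atrial genes. It stood at 41.99, 13.7 and 20.1 CPM in the rich libraries and 2.55, 0.0608 and 0.426 CPM in the poor ones. Normoxia 2 was the highest although its Myh6 was the lowest of the rich libraries. For each 100 counts of Myh6, Nppa had 12.2 in normoxia 2, 3.32 in hypoxia 2 and 2.64 in hypoxia 5, and 1.31, 0.0576 and 0.216 in normoxia 3, normoxia 5 and hypoxia 1. The highest of these 6 ratios was 212 times the lowest, but Nppa in normoxia 5 and hypoxia 1 was under 1 CPM and rests on few counts. Among the rich libraries alone the highest ratio was 4.63 times the lowest, where that of Myl7 was 1.37 times and that of Myl4 1.18 times. Myl7 ranged from 15.2 to 21.5 for each 100 Myh6 counts over the same libraries, and Myl4, the atrial essential light chain, from 16.4 to 20.6. In the 6 libraries the ratios of Myl7 and Myl4 to Myh6 varied far less than that of Nppa. In PTH 3, 4 and 5 Myl7 had 20.1, 10.9 and 50.9 counts for each 100 of Myh6, and Myl4 had 18.1, 15.1 and 49.8, so PTH 5, where Myh6 was lowest, stood apart.

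**Figure D2:**
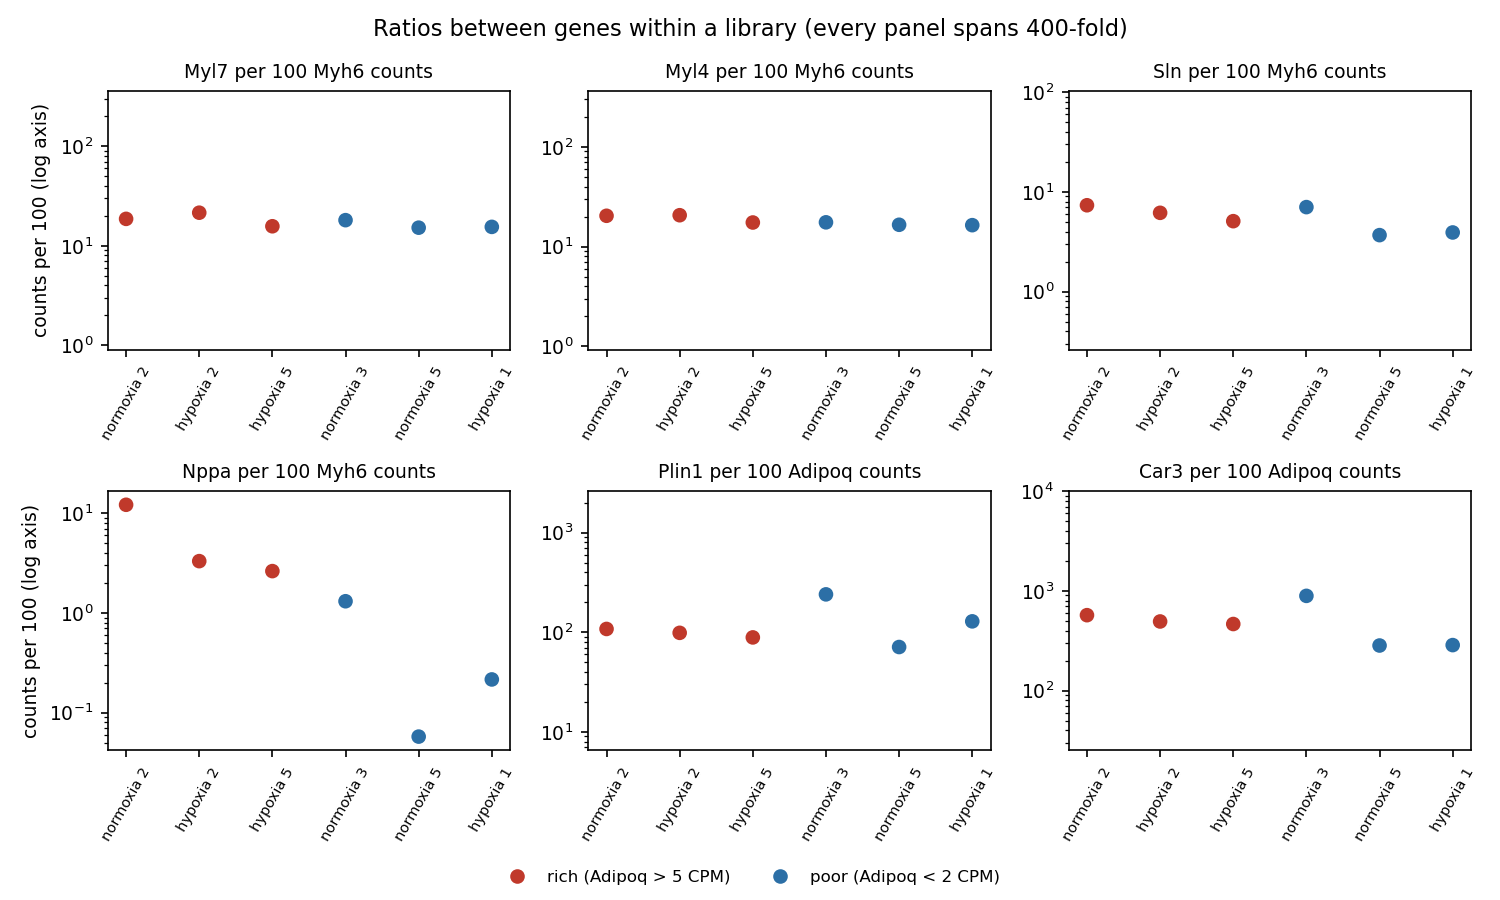
Counts of 6 genes for each 100 counts of Myh6 or Adipoq within each of the 6 libraries, on log axes that all span 400-fold. Red points are rich and blue points are poor libraries, with 1 point per library and no error because a ratio has 1 value in each. Myl7 and Myl4 lie almost level, and Nppa runs from 12.2 down to 0.0576, a value that rests on few counts. The Plin1 and Car3 ratios are level in the rich libraries and scatter in the poor ones, where the rule set Adipoq low.

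Among the rich libraries the ratio of Myh6 to Adipoq varied more than those of the fat genes Plin1, Car3 and Cfd. This does not hold for every fat gene, since the low levels of Lep and Ucp1 given above did not keep level with Adipoq. For each 100 counts of Adipoq, Myh6 had 2955 in normoxia 2, 2369 in hypoxia 2 and 6302 in hypoxia 5. Plin1 ran from 88.7 to 107.9 for each 100 Adipoq counts there, Car3 from 465 to 570.3 and Cfd from 657 to 774. Ratios to Adipoq are not compared between the classes, since the rule set Adipoq low in the poor libraries.

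The rich libraries differed from the poor ones in more than fat and heart. Several secretory genes of airway epithelium stood higher too. Bpifa1, a secreted protein of upper airway epithelium (chr2:154142880-154149219), stood at 2224, 1056 and 370.2 CPM in the rich and 9.57, 86.5 and 2.21 CPM in the poor libraries. Normoxia 2 was the highest, and normoxia 5 was the only poor library above 10 CPM. Scgb3a1, a secretoglobin of airway epithelium, had 553, 520.1 and 454 CPM against 33.7, 71.3 and 40.9 CPM, and its classes were separated 10.5-fold in the mean. Reg3g, an antibacterial lectin, had 83.4, 98.4 and 104 CPM against 0.958, 7.62 and 0.845 CPM. Bpifb1, a relative of Bpifa1, had log2 fold change 4.52 (SE 0.49), Muc5b, the gel-forming mucin, 2.12 (SE 0.41), and Ltf, the iron-binding lactoferrin of secretions and neutrophils, 4.46 (SE 0.71). Tff2, a trefoil peptide of mucous epithelia, had 13.1, 8.52 and 7.88 CPM in the rich and 0.787, 2.14 and 1.18 CPM in the poor libraries.

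Other genes of the same list overlapped between the classes. Scgb1a1, the main club cell secretoglobin, had 28249 ± 3262 CPM in the rich and 25629 ± 3743 CPM in the poor libraries, and Cyp2f2, a club cell cytochrome P450, had 2559 ± 346 and 2301 ± 262 CPM. Scgb3a2, another club cell secretoglobin, had 1343, 1055 and 886 CPM in the rich and 668, 828 and 511 CPM in the poor libraries, without overlap. All 12 airway club and goblet genes were tested, and all had log2 fold changes above 0, as did 48.4% of all genes tested. Of the 12, 6 had all rich above all poor libraries (8.15% of all genes), and the median was 1.25. Scgb3a1 was the 1 called, where 0.0777% of all genes tested were called. Of 12 motile cilium genes 7 had all rich above all poor libraries, with a median of 0.52. Dnah9, an outer arm dynein of cilia, had 27.9, 24.1 and 22.7 CPM against 16.9, 18.4 and 14.03 CPM, and Foxj1, the regulator of ciliated cells, 172, 117 and 107 CPM against 109.9, 113 and 103 CPM, where the classes overlapped.

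Basal epithelial genes had another order among the rich libraries. Krt5, the basal cell keratin, stood at 8.15, 5.47 and 0.532 CPM in the rich libraries, at 0 in normoxia 3 and normoxia 5, and at 0.0255 CPM in hypoxia 1. Krt15, another basal keratin, had 13.4, 18.3 and 1.27 CPM against 0.158, 0.266 and 0.307 CPM. Hypoxia 5 was the lowest rich library for both, although its Adipoq was within the rich range and its Myh6 was the highest of all. Trp63, the basal cell regulator p63, had 3.52, 1.53 and 1.28 CPM against 0.496, 0.427 and 0.318 CPM, and Pax9, a transcription factor of foregut epithelium, 4.56, 2.25 and 0.734 CPM against 0, 0.128 and 0.0497 CPM. Of the 10 oesophagus and basal genes 5 passed the filter on low counts, and Trp63 was the only 1 of these with at least 10 counts in every poor library, so no count or median of the list is read here, and no fold is given for Krt5. Dsg3 and Sprr3, which define stratified squamous epithelium, were at 0 in all 9 libraries, and Krt4 and Krt13 of the oesophagus were too low to test.

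Smooth muscle genes were higher in the rich libraries by smaller factors. Actg2, the enteric smooth muscle actin, had 58.7, 32.02 and 29.6 CPM in the rich and 24.3, 24.01 and 17.2 CPM in the poor libraries. Cnn1, calponin of contractile smooth muscle, had 132, 81.4 and 54.9 CPM against 39.9, 51.3 and 29.02 CPM, again with normoxia 2 the highest and hypoxia 5 the lowest of the rich. Acta2, smooth muscle actin, had 282 ± 56.04 and 167 ± 4.52 CPM. All 12 smooth muscle genes had log2 fold changes above 0 (48.4% of all genes tested), 8 had all rich above all poor libraries (8.15% of all genes), and the median was 0.57. Skeletal muscle genes gave 4 of 8 tested without overlap. Tnnt3, fast skeletal troponin T, had 27.1, 15.6 and 4.42 CPM against 3.49, 3.53 and 1.74 CPM, and was again lowest in hypoxia 5 among the rich libraries. Acta1, skeletal actin, was not tested and had 2.86, 1.10 and 0.183 CPM in the rich libraries.

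The remaining tissue lists were mixed. Pi16, a marker of adventitial fibroblasts, had 47.7, 60.2 and 61.6 CPM against 24.7, 34.3 and 18.5 CPM, and 4 of 13 genes of that list had all rich above all poor libraries, beside 8.15% of all genes. Of 5 cartilage genes tested none was free of overlap, although Chad, a cartilage matrix protein, had a log2 fold change of 1.24 (SE 0.33). Chad lies opposite Acsf2, whose counts were 194% of its own. Mesothelial genes had 1 of 11 without overlap, which is near that share, and a median of 0.35 (-0.20 without normoxia 2). Thymic genes had 1 of 5 and a median of -0.06. Cyp2e1, a cytochrome P450 abundant in liver and also made in fat, had 49.9, 58.9 and 56.4 CPM against 8.28, 6.55 and 3.17 CPM, whereas Alb, liver albumin, had a log2 fold change of 0.10.

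**Figure D3:**
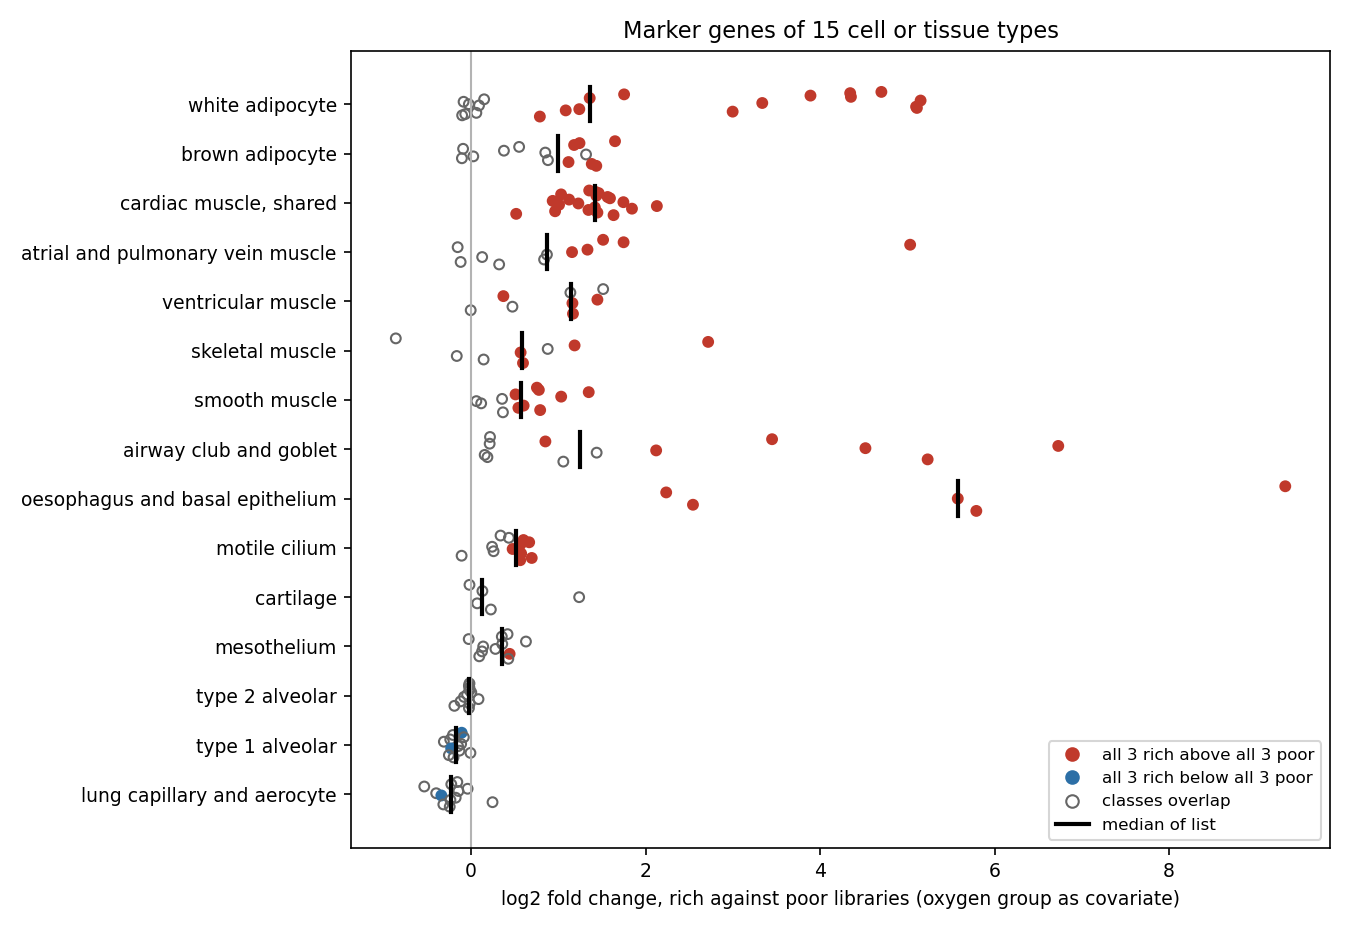
Rich against poor log2 fold change of each tested gene in 15 marker lists, 1 point per gene, with the oxygen group as covariate. Filled red points have all 3 rich libraries above all 3 poor ones, filled blue points the reverse, open points overlap, and the black bar is the list's median. Medians of the fat, cardiac and airway lists lie to the right of 0, the basal list shows only the 5 genes that passed the filter, and the type 1 alveolar and lung capillary lists lie slightly to its left.

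Type 1 alveolar and capillary genes stood slightly lower in the rich libraries. All 12 type 1 alveolar genes had log2 fold changes below 0, where 48.4% of all genes tested were above 0. Their median was -0.17, and 2 of them had every rich library below every poor one, as did 2.71% of all genes tested. Ager, the receptor for glycation end products that type 1 cells carry, had 1838 ± 2.14 CPM in the rich and 1935 ± 62.96 CPM in the poor libraries. Emp2, a membrane protein of type 1 cells, had 1218, 1081 and 1075 CPM against 1328, 1253 and 1334 CPM. Of 12 capillary genes 11 were below 0, with a median of -0.23, and Ptprb, an endothelial phosphatase, had 851 ± 29.5 against 1106 ± 215 CPM. Type 2 alveolar genes had a median of -0.02. The fixed rule named genes lower in the rich libraries from those with an unadjusted p under 0.01, since none was called. Calcrl, the receptor subunit for adrenomedullin on endothelium, was among them at 606, 589 and 616 CPM against 778, 1009 and 986 CPM, and Pde3a, a cyclic nucleotide phosphodiesterase, at 78.2, 80.99 and 78.9 CPM against 114, 141 and 105 CPM.

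Across all genes, edgeR's quasi-likelihood test called 15 of 19313 at an adjusted p under 0.05, or 0.0777%, all higher in the rich libraries. The share restates how the libraries were chosen and is not a finding about them. The 15 were Adipoq, Plin1, Fabp4 and Cidec of fat, and Scgb3a1, Cxcl17, Agr2, Gp2, Sult1d1, Otx1, Oit1, Serpina9, Actg2, B3galt2 and A530016L24Rik. The call of Adipoq was fixed by the rule and is no test. Agr2, a protein disulphide isomerase of mucous cells, had 5.67, 2.43 and 2.19 CPM against 0.376, 0.566 and 0.348 CPM, and Gp2, a secretory granule glycoprotein, 4.27, 3.11 and 5.87 CPM against 0.171, 0.255 and 0.298 CPM. B3galt2 lies opposite Cdc73, whose counts were 3064% of its own. None was called lower, although 1468 genes in both directions had an unadjusted p under 0.05. Without normoxia 2 the count was 3, without hypoxia 1 it was 5, without hypoxia 2 it was 1 and without hypoxia 5 it was 5. In a fit of all 9 libraries edgeR called 0 genes (1327 at an unadjusted p under 0.05), whereas DESeq2 called 358 in the 6. In every one of these fits all 15 genes kept a log2 fold change above 0. The rich against poor difference was itself compared between hypoxia and normoxia, and edgeR called 0 genes, with 665 at an unadjusted p under 0.05 and 29 called by DESeq2.

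Libraries also differed in neutrophil, stress and clock genes, and the classes overlapped for most of these genes. The summed level of 12 neutrophil genes was 419 to 1253 CPM in the rich libraries and 139 to 835 CPM in the poor ones, with normoxia 5 as the high poor library. All 11 tested had log2 fold changes above 0 (48.4% of all genes tested did), with a median of 1.15 that was -0.34 without hypoxia 1. None of the 11 was free of overlap. Of 12 immediate early and stress genes 11 were above 0, with a median of 0.72, and 2 had all rich above all poor libraries, beside 8.15% of all genes. Fos, an immediate early gene, had 158, 264 and 158 CPM against 114, 152 and 35.3 CPM, with hypoxia 1 the lowest and a narrow gap between the classes. Dbp, a clock output gene, had 204, 197 and 13.98 CPM against 158, 6.73 and 318 CPM, so each class held 2 high libraries and 1 low one. Their part in the differences between the classes was not tested, apart from a fit with the Dbp class added, which called 13 genes.

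Adipoq and airway genes were also set side by side within the PTH, poor and rich libraries. PTH 4 had the most Adipoq of the PTH libraries, and it also had the most Bpifa1, at 0.223, 67.1 and 6.37 CPM in PTH 3, 4 and 5, and the most Scgb3a1, at 2.87, 189.8 and 32.2 CPM. Of 12 airway genes 9 were highest in PTH 4 among the PTH libraries, as were 30.7% of all genes tested. Normoxia 5 had the most Adipoq of the poor libraries, and 11 of the 12 airway genes were highest there among the poor ones, beside 33.1% of all genes. That order of the poor libraries rests on few Adipoq counts, 36 in normoxia 5, 24 in normoxia 3 and 14 in hypoxia 1. The rich libraries did not follow this order, since hypoxia 2 had the most Adipoq and 0 of the 12 airway genes were highest in it, beside 27.9% of all genes. Of the 21 white fat genes, Adipoq among them, 13 were highest in PTH 4, 8 in normoxia 5 (38.1%) and 12 in hypoxia 2, each within its own set. Cardiac genes had another order, since 0 of the 20 shared cardiac genes were highest in normoxia 5 and 3 were highest in PTH 4. PTH 5 was the lowest library of all for Myh6, at 6.72 CPM, and for Sln, at 0.0927 CPM.

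Hypoxia was compared with normoxia in the 6 libraries with and without the class as a covariate. Hypoxia held 2 of the 3 rich libraries, so genes that sort with Adipoq bear on this comparison. Without the class, edgeR called 137 genes (0.709%), of which 87 were higher (0.45%) and 50 lower (0.259%) in hypoxia. With the class it called 117 (0.606%), 76 higher (0.394%) and 41 lower (0.212%), and 98 genes were in both sets. None of the 137 was among the 15 genes called between the classes. The count without the class was 88 when normoxia 2 was left out, 21 without normoxia 3, 47 without hypoxia 1 and 63 without hypoxia 5. With log2 Adipoq and log2 Myh6 as covariates in place of the class it was 11.

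The hypoxia medians of several tissue lists changed when the class was added. Hypoxia held more rich libraries than normoxia, so adding the class lowers the hypoxia log2 fold change of genes higher in the rich libraries. These changes follow from the class differences and the design, and are no separate result. The median hypoxia log2 fold change of the 21 white adipocyte genes, Adipoq among them, was 0.99 without the class and 0.00 with it. Plin1 went from 1.04 (SE 1.58) to -0.15 (SE 0.36), and it was called in neither fit. The 20 cardiac genes went from a median of 0.97 to 0.47, and Myh6 from 1.10 (SE 0.62) to 0.59 (SE 0.34). The 12 airway genes went from -0.21 to -0.55, and Bpifa1 from -0.66 (SE 2.43) to -2.86 (SE 1.43). The medians over all genes tested were 0.00 in both fits. Mybpc3, cardiac myosin-binding protein C, kept 1.25 (SE 0.31) with the class, from 7.86, 20.2 and 25.5 CPM in normoxia 2, hypoxia 2 and hypoxia 5 and 4.23, 2.06 and 5.99 CPM in normoxia 3, normoxia 5 and hypoxia 1, and was not called.

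Some genes called in hypoxia without the class are given next, and they moved less than the fat, cardiac and airway medians. Genes that follow the class spread within each oxygen group, which makes a call in that fit harder. The smaller change therefore follows partly from the choice of genes. Esm1, an endothelial proteoglycan made at growing vessel tips, was at 73.2, 43.6 and 34.3 CPM in normoxia 2, 3 and 5 and at 4.35, 4.88 and 5.48 CPM in hypoxia 1, 2 and 5. It fell by 3.35 on the log2 scale without the class (SE 0.27, edgeR adjusted p = 0.0056) and by 3.50 with it (SE 0.17, adjusted p = 0.00076). Slc7a10, an amino acid exporter on the white fat list that lies against Lrp3, whose counts were 39.5% of its own, rose by 1.08 without the class and 1.11 with it (edgeR adjusted p = 0.023 and 0.046). Its classes overlapped, at 22.01, 37.8 and 40.6 CPM in the rich and 22.2, 15.7 and 48.7 CPM in the poor libraries, and it was the only called gene of the 21 tested on that list without the class. Hoxd9, a homeobox gene, went from 2.60 (SE 0.40) to 2.38 (SE 0.41), and its edgeR adjusted p from 0.036 to 0.077. Cd34, a surface marker of endothelium and stromal progenitors, went from 0.90 (SE 0.13) to 0.89 (SE 0.14), with edgeR adjusted p = 0.028 and 0.057. These 2 losses came with larger p-values and nearly unchanged log2 fold changes.

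**Figure D4:**
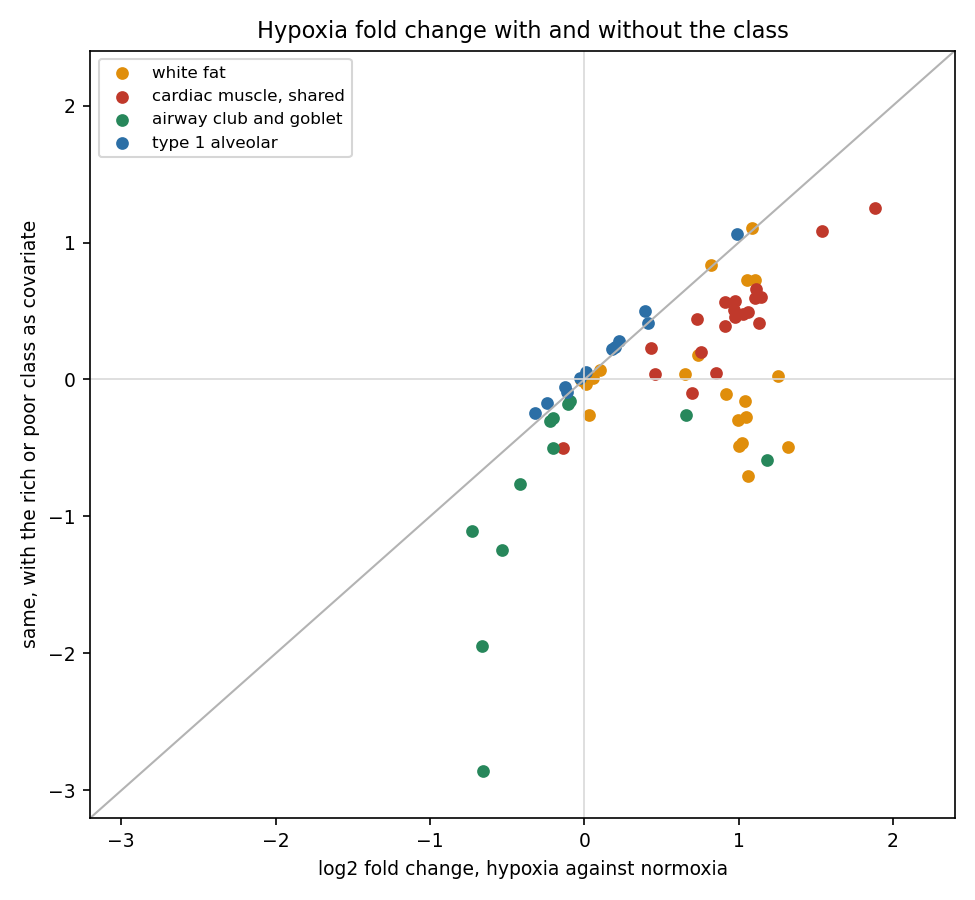
Hypoxia against normoxia log2 fold change of each tested gene in 4 marker lists, without the class on the horizontal axis and with the rich or poor class as covariate on the vertical axis, 1 point per gene. The grey diagonal marks equal values. Of the white fat genes 17 of 21, and of the cardiac genes 20 of 20, lie below the diagonal. The same numbers had rich against poor log2 fold changes above 0, so this restates the class differences. The white fat and cardiac medians go from 0.99 to 0.00 and from 0.97 to 0.47, while type 1 alveolar genes lie on or near the diagonal.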

How the data were processed

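Whole-lung poly(A) RNA of 9 libraries was sequenced. Reads were trimmed with Trimmomatic 0.39 and aligned with STAR 2.7.9a to mm10, per the submitters' processing notes, while for the counter, its strand setting and its annotation the sources used here name nothing. The authors deposited values for 53342 genes that are taken as estimated counts, since 11.4% of those above 0 were whole. The deposited log2 values were read as log2 TPM with a floor of 1 TPM. Of whole counts from 1 to 20, 88.8% were even, so the depth in fragments may be lower than the totals.

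Counts were rounded and fitted with edgeR 4.0.16 in R 4.3.3 (TMM, filterByExpr with minimum count 10 and total 15, quasi-likelihood F test, Benjamini-Hochberg adjustment over all genes tested). The main fit held the 6 libraries, the class and the oxygen group, with 3 residual degrees of freedom, a biological coefficient of variation of 0.185 and a median SE of 0.16 on the log2 scale. Hypoxia was fitted with and without the class. Each procedure was tested on simulated data. The classes, the 35 gene lists and the rule for named genes were chosen with earlier results of these data known.

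By that rule Adipoq and Myh6 were named first, then up to 10 genes per direction with the largest change among called genes whose classes did not overlap and whose higher mean was at least 5 CPM, without predicted genes. With fewer than 5 called in a direction, an unadjusted p under 0.01 took the place of the call. From each list the first 4 members, the 4 with the smallest p and any called were eligible, as were 5 hypoxia genes that moved most with the class. The text describes some of these, and Ltf and Tff2 were added after their values were seen. Levels are CPM as mean ± SD of 3 libraries. An SE is the absolute log2 fold change divided by the square root of the F statistic, so it restates the test. Alternatives were DESeq2 1.42.0 (size factors or test), limma-voom 3.58.1, no filter or a minimum count of 50, all 9 libraries, other covariates, other thresholds and each library left out. Same-numbered libraries were not treated as pairs. Some results are not reported here.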

Additional observations from a re-analysis of the deposited data

How the results depend on the processing

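In the comparison rich against poor, beside 15 genes called, DESeq2 called 358, limma-voom 23, an unfiltered fit 214, a fit of all 9 libraries 0 (1327 at an unadjusted p under 0.05), log2 Adipoq in place of the class 25, and a threshold of 0.1 gave 49. Leaving out 1 library gave 1 to 14. For hypoxia against normoxia, beside 137 genes, log2 Adipoq and log2 Myh6 as covariates gave 11, DESeq2 797 and no filter 297, and leaving out 1 library gave 21 to 126. With the replicate number as a block, 2 genes were called. The residual correlation was 0.20 for the pair numbered 2 and 0.029 for that numbered 5. Both libraries numbered 2 were rich and those numbered 5 were in different classes, so these values cannot show whether the numbers pair the libraries. The classes share only number 5. For the difference of the class effect between oxygen groups, beside 0 genes, DESeq2 called 29 and no filter 335. The cause of these differences between fits was not tested. None of the 77 genes and contrasts changed direction in the fits that gave it a value (at a minimum count of 50 some had none), but 17 of 35 list medians took both signs. Among these, the mesothelial median was -0.20 and the B cell median -0.19 without normoxia 2, and the neutrophil median was -0.34 without hypoxia 1. The other counts lay within 1.5 times of those given. With 3 libraries per class and 3 residual degrees of freedom, small differences were not detectable, and levels under 1 CPM rest on few counts. Totals differed by less than 1.5 times between libraries, and no pair of libraries differed by as little as sampling noise.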

Other observations

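Mitochondrial energy genes stood slightly higher in the rich libraries. All 15 had log2 fold changes above 0, as did 48.4% of all genes tested, with a median of 0.16. Of the 15, 12 had every rich library above every poor one, beside 8.15% of all genes tested. The summed level was 1848 to 2027 CPM in the rich and 1584 to 1707 CPM in the poor libraries. B cell genes did not sort in this way. All 12 had log2 fold changes above 0, beside the same 48.4%, with a median of 0.33 that was -0.19 without normoxia 2. None of the 12 was free of overlap. Normoxia 2 had a summed level of 306.0 CPM where hypoxia 2 and 5 had 69.0 and 111.5. Folr2, a marker of resident tissue macrophages, was the 1 of 12 macrophage genes without overlap, at 2.87, 1.75 and 1.91 CPM in the rich and 1.47, 0.724 and 1.04 CPM in the poor libraries. Pth1r, the receptor for PTH, had 4.22, 4.86 and 5.45 CPM in the rich and 4.09, 3.18 and 4.16 CPM in the poor libraries, and lies opposite Myl3, whose counts were 78.1% of its own.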
